A study of Rattus norvegicus with 12 samples.

Results

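The 4 vehicle-treated cultures of rat theca-interstitial cells were described across all 30045 gene rows of the deposited table, without comparison to a stimulated culture. These 4 Control libraries were chosen by their treatment label from the 12 libraries of the series, whose other groups received IL-1β or LPS. The cells came from female, wild-type Sprague Dawley rats at postnatal day 30, and each culture stood on fibronectin-coated plastic in McCoy's 5A medium at 100000 to 200000 cells per well. Vehicle was present for 48 h, and polyadenylated RNA was then sequenced as stranded libraries. The labels do not say whether the 4 cultures came from separate animals, pooled animals or separate isolations, so the spread between them may be technical in part.

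Theca cells form the outer layer of an ovarian follicle and make androgen. Luteinizing hormone acts on them through its receptor Lhcgr; Star carries cholesterol into the mitochondrion, Cyp11a1 cuts its side chain, Hsd3b enzymes form progesterone, and Cyp17a1 forms androstenedione. Granulosa cells inside the follicle turn that androgen into estrogen with Cyp19a1, the aromatase. Theca cells also secrete Insl3, a relaxin-family peptide, and lie in a stroma of fibroblast-like cells, contractile cells, blood vessels and macrophages. Immature rats have follicles of several stages and, before the first ovulation, no corpus luteum.

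Many genes of steroid synthesis are bound by Nr5a1 (steroidogenic factor 1), whose binding sites can hold the half-site AGGTCA. The 6 letters alone are not specific to Nr5a1. Windows of 250 bases before the gene start were taken from RefSeq (build GRCr8) and searched for these 6 letters on both strands. The letters stood in 4707 of 33469 windows, or 14.1%. Of the 23 genes in the androgen synthesis and theca lists, 15 had a window and 5 of those held the letters (Cyp11a1, Fdx1, Insl3, Lhcgr and Por). In the granulosa list it was 3 of 7 genes with a window (Amh, Inha and Nr5a2). The 14.1% counts windows, whereas the list figures count genes with the letters in any of their windows. The units differ, so no enrichment is read from these figures. The next 4 windows were chosen among those that held the letters, for genes of the steroid-making and follicular cells described below. Windows of list members without the letters are not shown. Capitals mark the letters AGGTCA or their reverse complement, TGACCT. A match is a description of the sequence and no evidence of binding in these cultures.
Cyp11a1 (chr8:67318415-67318664, plus strand): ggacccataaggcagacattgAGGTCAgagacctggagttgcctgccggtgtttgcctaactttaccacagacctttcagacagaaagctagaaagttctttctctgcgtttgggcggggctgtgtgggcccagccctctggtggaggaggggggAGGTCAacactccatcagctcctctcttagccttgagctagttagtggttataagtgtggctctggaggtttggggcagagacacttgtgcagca
Lhcgr (chr6:11415165-11415414, plus strand): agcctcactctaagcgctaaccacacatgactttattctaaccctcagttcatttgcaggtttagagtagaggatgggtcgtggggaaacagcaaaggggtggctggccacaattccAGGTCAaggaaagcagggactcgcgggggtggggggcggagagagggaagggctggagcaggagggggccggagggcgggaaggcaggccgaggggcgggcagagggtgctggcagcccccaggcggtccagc
Insl3 (chr16:18432939-18433188, plus strand): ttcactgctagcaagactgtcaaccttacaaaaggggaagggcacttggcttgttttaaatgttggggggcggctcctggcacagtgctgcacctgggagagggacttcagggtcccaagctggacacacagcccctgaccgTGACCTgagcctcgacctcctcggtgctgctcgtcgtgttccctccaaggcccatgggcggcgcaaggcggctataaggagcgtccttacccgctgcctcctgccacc
Inha (chr9:84442859-84443108, plus strand): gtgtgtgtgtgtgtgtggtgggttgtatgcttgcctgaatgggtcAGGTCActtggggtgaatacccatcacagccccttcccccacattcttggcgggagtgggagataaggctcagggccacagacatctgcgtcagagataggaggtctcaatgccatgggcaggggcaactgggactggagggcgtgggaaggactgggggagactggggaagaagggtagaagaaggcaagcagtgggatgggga
The Cyp11a1 window held the letters at 229 and 95 bases before the start, Lhcgr at 133, Insl3 at 108 on the other strand and Inha at 205. As given below, Inha was read above 100 CPM in these cultures, Cyp11a1 and Lhcgr between 1 and 10 CPM and Insl3 under 1 CPM, so genes sharing the letters stood at very different read levels.

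The 4 libraries held between 20873934 and 32090924 counts. Levels are given as counts per 1000000 (CPM), scaled by TMM, with the mean ± SD of the 4 libraries (n = 4) and, where 4 values follow each other, replicates 1 to 4 in that order. A row was called detected at 1 CPM or more in all 4 libraries, which 14596 rows were, or 48.6%. Of all rows, 34.1% stood at 10 CPM or more in all 4 libraries and 7.59% at 100 CPM or more, and 3202 rows had no count in any of the 4. Each list count below is to be read beside these shares of all rows. The median of the mean CPM was 0.975 over all rows and 25.7 over detected rows. At 1 CPM counting error alone was 21.9% in the shallowest library, and 3 counts, the limit that a count of 0 allows, corresponded to 0.0933 to 0.143 CPM. CPM is a share of reads and rises with transcript length, so the order of genes below is an order of read shares and not of transcript numbers. In bulk RNA, fewer cells of a type and less RNA per cell cannot be told apart.

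Matrix genes stood near the top of the transcriptome. Fn1, which encodes fibronectin, stood at rank 2 with 6069 ± 209 CPM. The library values of Fn1 were 6288, 6064, 6136 and 5789 CPM, highest in replicate 1 and lowest in replicate 4. Among the next rows were the elongation factor gene Eef1a1 (5178 ± 59.2 CPM), the actin crosslinker Flna (4697 ± 34.5), the type I collagen chains Col1a1 (4671 ± 319) and Col1a2 (3940.2 ± 275), and Actb (3837 ± 64.3). The 30 rows of highest CPM also held Ahnak, Col3a1, Actg1, the collagen-binding Sparc, Col4a1, Bgn, Dag1, Thbs1, Tagln, Vim, Cald1, Itgb1, Acta2, Myh9, Eef2 and the ubiquitin ligase Nedd4 (1829.7 ± 31.2 CPM). Most of these genes encode matrix, cytoskeleton or translation proteins. Other rows there had a clone-type symbol, a numbered copy or a gene family symbol (LOC100911991, LOC100360413, LOC103691939, LOC100361457, LOC100911597, Col1a2-2 and Potef). LOC100911991 and LOC100360413 had near-identical counts in every library (mean 4985 CPM each), and Col1a2-2 (3752 ± 263 CPM) is a second row of Col1a2, so reads of these rows may have been counted more than once or divided. The 10 rows of highest CPM held 5.21 ± 0.0611% of counts, the first 100 held 18.1 ± 0.19% and the first 1000 held 48.2 ± 0.178%.

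**Figure D1:**
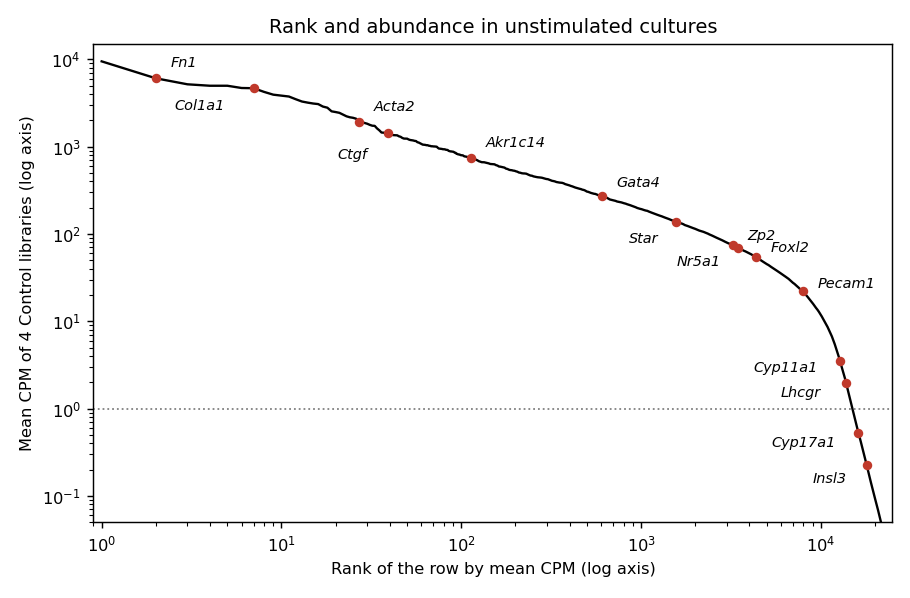
Mean CPM of the 4 Control libraries against the rank of the row, both on log axes; the line runs through the ranked rows down to 0.05 CPM, red points mark named genes, and the dotted line is 1 CPM. Fn1 and Col1a1 stand at ranks 2 and 7, Star at rank 1571, and Cyp17a1 and Insl3 lie below the dotted line.

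The path from cholesterol to androgen was read in part, with Cyp17a1 below detection. Of 13 enzymes and carriers in the list, 10 were detected, 8 stood at 10 CPM or more and 2 at 100 CPM or more. The shares of all rows were 48.6%, 34.1% and 7.59%. The list's median was 16.1 CPM. Not detected were Cyp17a1, Hsd17b3 and Cyp19a1, the last of which turns androgen into estrogen. Star had library values of 153, 130.3, 144 and 124 CPM (138 ± 12.9), highest in replicate 1 and lowest in replicate 4. The spread of Star, a CV of 9.37%, exceeded the median CV of 3.56% over the 10453 rows with a mean of 10 CPM or more. Scarb1, the receptor that takes up cholesterol from HDL, stood at 55.9, 62.5, 58.9 and 64.6 CPM (60.5 ± 3.84), and here replicate 1 was the lowest.

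Downstream of Star, fewer reads were counted. Cyp11a1 was read at 3.82, 3.35, 3.49 and 3.23 CPM, resting on 123, 88, 73 and 100 counts, and its electron donors Fdx1 and Fdxr at 13.2 ± 0.635 and 16.1 ± 1.01 CPM. Among the 3-beta-hydroxysteroid dehydrogenases, Hsd3b6 stood at 32.96, 31.9, 32.96 and 26.9 CPM and Hsd3b5 at 3.64 ± 0.213 CPM. The family's copies are similar in sequence, so the division of reads between them is uncertain. Hsd3b1 was not matched to a row, so these rows may not give the level of the whole family. Cyp17a1, which makes the step to androgen, had 18, 14, 13 and 12 counts, or 0.5597, 0.533, 0.621 and 0.388 CPM, and was below 1 CPM in all 4 libraries. The partners that Cyp17a1 shares with other enzymes were all detected, with Por at 80.8 ± 1.63 CPM and Cyb5a, which favours its lyase reaction, at 33.7 ± 1.59 CPM. Cyp19a1 had 8, 4, 0 and 3 counts, at most 8 in a library, and Hsd17b3 stood at 0.184 ± 0.0642 CPM. The cultures carried reads for the entry of cholesterol and for redox partners, with few for the side-chain, lyase and aromatase enzymes.

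**Figure D2:**
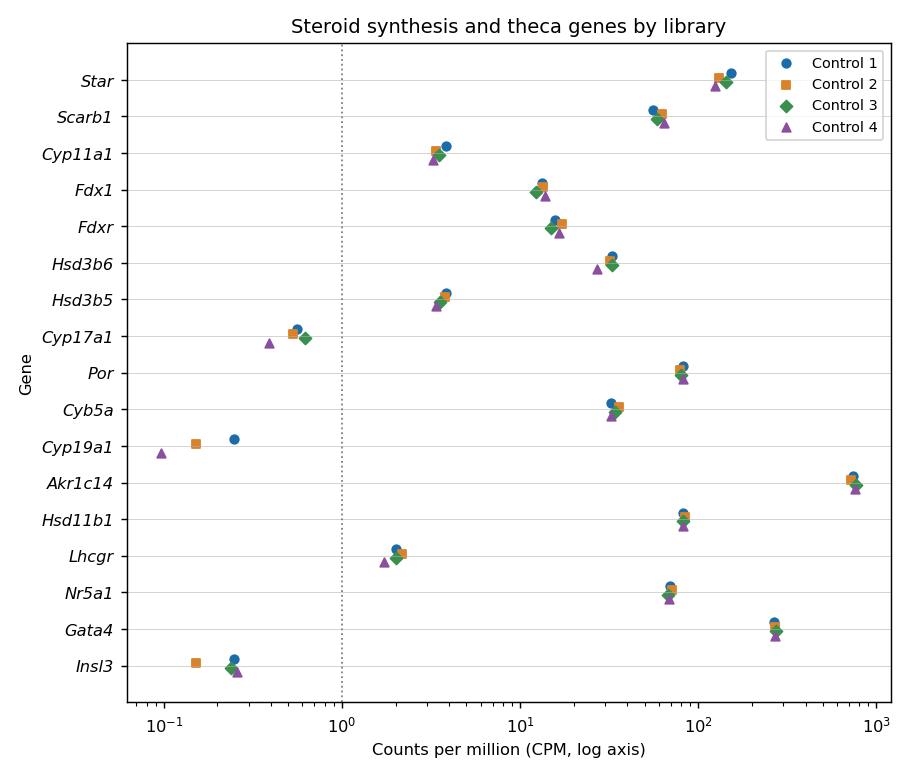
CPM of steroid synthesis and theca genes on a log axis, 1 point for each Control library; the dotted line is 1 CPM and a library with 0 counts (Cyp19a1 in replicate 3) has no point. Akr1c14 and Gata4 lie far to the right, and Cyp17a1, Cyp19a1 and Insl3 lie left of 1 CPM in every library.

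Enzymes that convert or inactivate steroids were led by Akr1c14, a 3-alpha-hydroxysteroid dehydrogenase that reduces dihydroprogesterone and dihydrotestosterone. Akr1c14 stood at 738, 715, 767 and 755 CPM (744 ± 22.6) at rank 113, the sole member of its list at 100 CPM or more. Of 20 members 15 were detected, with a median of 11.8 CPM. Hsd17b4 followed at 92.1 ± 2.58 CPM, Hsd11b1, which regenerates active glucocorticoid, at 82.5 ± 0.959 CPM and Hsd17b12 at 78.2 ± 1.699 CPM. Hsd11b2, which inactivates glucocorticoid, was at 0.923 ± 0.2303 CPM and was not detected. The row Akr1c3, a RefSeq synonym of Akr1c18, the rat 20-alpha-hydroxysteroid dehydrogenase that inactivates progesterone, stood at 50.6, 40.4, 46.8 and 39.5 CPM. Of the genes named for steroid 5-alpha-reductase, Srd5a3 and Srd5a1 were at 47.7 ± 1.51 and 4.65 ± 0.348 CPM, and Srd5a2 was at 0.0475 ± 0.0409 CPM. Activity toward steroids was not measured for any enzyme of this list, so its reads are not a measure of steroid conversion.

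Genes that supply cholesterol were all detected, 22 of 22, with 10 at 100 CPM or more and a median of 77.9 CPM. Soat1, which stores cholesterol as ester, led at 521 ± 8.89 CPM, followed by the lipoprotein gene Apoe (440.3 ± 15.8), the exporter Abca1 (233 ± 6.48), the lysosomal carrier Npc2 (219 ± 2.803) and Hmgcs1, an early enzyme of cholesterol synthesis (198 ± 4.32). Cyp51, a later enzyme of that path, stood at 146, 144, 149.6 and 149 CPM. Tspo, an outer mitochondrial membrane protein, was at 67.8 ± 2.72 CPM, and the hormone-sensitive lipase gene Lipe was the lowest of the list at 6.602 ± 0.561 CPM. The summed level of the list varied little between cultures, 2941, 2995, 2953 and 2973 CPM.

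Transcription factors of the gonad were detected without exception in the list of 28, with 19 at 10 CPM or more. Gata4, a regulator of gonadal steroid genes, was read at 265, 271, 271 and 271 CPM and Nr5a1 at 68.97, 71.5, 67.4 and 68.5 CPM. Sox4 stood at 340.4 ± 9.42 CPM, and Nr2f2 (COUP-TFII), a factor of ovarian stroma and theca, at 87.8 ± 4.13 CPM. The related receptor Nr5a2 stood at 38.9 ± 1.299 CPM, the granulosa factor Foxl2 at 53.9 ± 4.66 CPM, Wt1 at 48.5 ± 1.22 CPM and Gata6 at 29.1 ± 1.81 CPM. Of the hedgehog-regulated Gli genes, through which follicular ligands act on theca precursors, Gli2 and Gli3 stood at 26.8 ± 1.06 and 26.8 ± 1.55 CPM and the target gene Gli1 at 3.804 ± 0.491 CPM; its ligands Dhh and Ihh were at 3.56 ± 0.315 and 3.37 ± 1.61 CPM. Sox9, the testis factor, was at 1.85 ± 0.329 CPM and Nr0b1, a repressor of Nr5a1, at 5.15 ± 0.667 CPM. Both Nr5a1 and Gata4, known regulators of Cyp17a1 and Insl3, were thus read in cultures where those 2 genes were under 1 CPM.

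Receptors for steroids and related ligands were detected for 20 of 23 members. The glucocorticoid receptor Nr3c1 stood at 129, 125, 133 and 126 CPM (128 ± 3.52), and the membrane-associated progesterone receptor component Pgrmc1 at 185 ± 5.902 CPM. Estrogen receptor beta (Esr2) was read at 15.7, 16.9, 17.1 and 16.4 CPM and estrogen receptor alpha (Esr1) at 3.296, 3.24, 3.44 and 3.23 CPM. The progesterone receptor Pgr was at 7.34 ± 0.5804 CPM and Pparg, a lipid-sensing receptor of follicles, at 28.01 ± 1.51 CPM. The vitamin D receptor Vdr, the membrane estrogen receptor Gper1 and Rxrg were not detected, at 0.185 ± 0.0736, 0.268 ± 0.0801 and 0.131 ± 0.0607 CPM.

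Receptors for gonadotropins were near the detection threshold. Lhcgr had 65, 57, 42 and 53 counts, or 2.02, 2.17, 2.01 and 1.71 CPM (1.98 ± 0.192), and Fshr, the follicle-stimulating hormone receptor of granulosa cells, 2.301, 3.16, 3.39 and 2.78 CPM (2.91 ± 0.477). Both passed 1 CPM in every library, and replicate 1 was the lowest for Fshr. The receptor for gonadotropin-releasing hormone, Gnrhr, known in rat ovary, stood at 74.2, 75.2, 76.4 and 74.5 CPM, with an SD of 1.02 CPM. The growth hormone receptor Ghr was at 57.2 ± 1.68 CPM, the natriuretic peptide receptor Npr2 at 102 ± 3.18 CPM and the prolactin receptor Prlr at 2.94 ± 0.357 CPM. Adipor1 and Adipor2, the adiponectin receptors, and F2r, the thrombin receptor, led the list at 127 ± 3.07, 114 ± 1.66 and 117 ± 3.796 CPM. The endothelin receptors Ednra and Ednrb stood at 52.3 ± 1.800 and 40.4 ± 2.77 CPM, whereas the relaxin-family receptors Rxfp1 and Rxfp2, the latter the receptor for Insl3, were at 0.0633 ± 0.05402 and 0.1102 ± 0.0296 CPM. Of 42 hormone and G protein coupled receptors 32 were detected, 18 at 10 CPM or more and 3 at 100 CPM or more. The shares of all rows were 48.6%, 34.1% and 7.59%. The median was 5.27 CPM.

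Growth factor receptors were detected for 42 of 45 members, with 16 at 100 CPM or more and a median of 65.7 CPM. Axl, the receptor for Gas6, led at 505, 503, 485 and 498 CPM. The platelet-derived growth factor receptors Pdgfrb and Pdgfra, of stromal and perivascular cells, stood at 414, 436, 399 and 421 and 185, 182, 174 and 176 CPM. Insulin and insulin-like growth factors act on theca androgen synthesis together with luteinizing hormone; their receptors Igf1r and Insr were read at 208, 203, 202 and 199 and 129, 123, 129 and 123 CPM. Ddr2, a collagen receptor, stood at 295 ± 6.39 CPM, Tgfbr2 at 244 ± 3.21, Igf2r at 239 ± 12.8 and Fgfr1 at 232 ± 5.11 CPM. Bmpr2, Bmpr1a and Bmpr1b, through which oocyte and theca bone morphogenetic proteins act, were at 208 ± 4.67, 81.3 ± 1.78 and 70.6 ± 3.800 CPM, and Amhr2, the anti-Müllerian hormone receptor, at 22.2 ± 1.55 CPM. The row Notch2 had 0 counts in every library while a second row of that symbol, Notch2-2, had 6423, 5119, 4174 and 6027 counts (197 ± 2.77 CPM), so the 0 is listed for a symbol whose reads stand in another row.

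Transcripts of the receptors for both stimuli used elsewhere in the series were read in these unstimulated cultures. Receptor protein was not measured. IL-1β signals through Il1r1 with its co-receptor Il1rap, and Il1r2 is a decoy that binds the ligand without signalling. Il1r1 stood at 219, 227, 214 and 210.4 CPM (218 ± 7.17), at rank 848. Il1rap stood at 10.7, 10.1, 10.7 and 10.2 CPM, and the decoy Il1r2 at 0.808, 0.723, 0.669 and 0.549 CPM, below 1 CPM in all 4 libraries. LPS is passed by Lbp and Cd14 to Tlr4 with its partner Ly96. Tlr4 was read at 15.6, 14.3, 16.4 and 14.1 CPM, Ly96 at 15.6, 13.9, 14.00 and 14.1 CPM and Cd14 at 34.1, 35.03, 31.9 and 32.7 CPM; Ly96 was highest in replicate 1. Lbp, largely a plasma protein of the liver, was at 2.36 ± 0.279 CPM. The adaptor Myd88, shared by both receptors, stood at 27.7, 30.04, 29.1 and 29.2 CPM. Adaptors and kinases downstream were all detected, 22 of 22, with Map3k7 (155 ± 3.79 CPM), Irak1 (135 ± 4.96), Tab2 (115 ± 3.22), Rela (85.01 ± 0.936) and Nfkb1 (83.1 ± 2.75) among them and Ticam2 the lowest at 1.99 ± 0.283 CPM.

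Beyond these, 35 of 43 innate and cytokine receptors were detected, 6 at 100 CPM or more. Il6st, the signalling chain shared by IL-6 family cytokines, led at 414 ± 8.21 CPM, with Tnfrsf1a, the receptor for tumor necrosis factor, at 154 ± 0.5998, Il4r at 152 ± 4.87, Il13ra1 at 121 ± 2.13 and Ifnar1 at 109 ± 2.16 CPM. Tlr3, the sensor of double-stranded RNA, stood at 72.1 ± 1.37 CPM, Tlr5 at 34.3 ± 2.01 and Tlr2 at 11.4 ± 1.33 CPM. Tlr9, Cxcr2 and Cxcr3, receptors of leukocytes, were at 0.212 ± 0.117, 0.0747 ± 0.0545 and 0.171 ± 0.108 CPM.

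**Figure D3:**
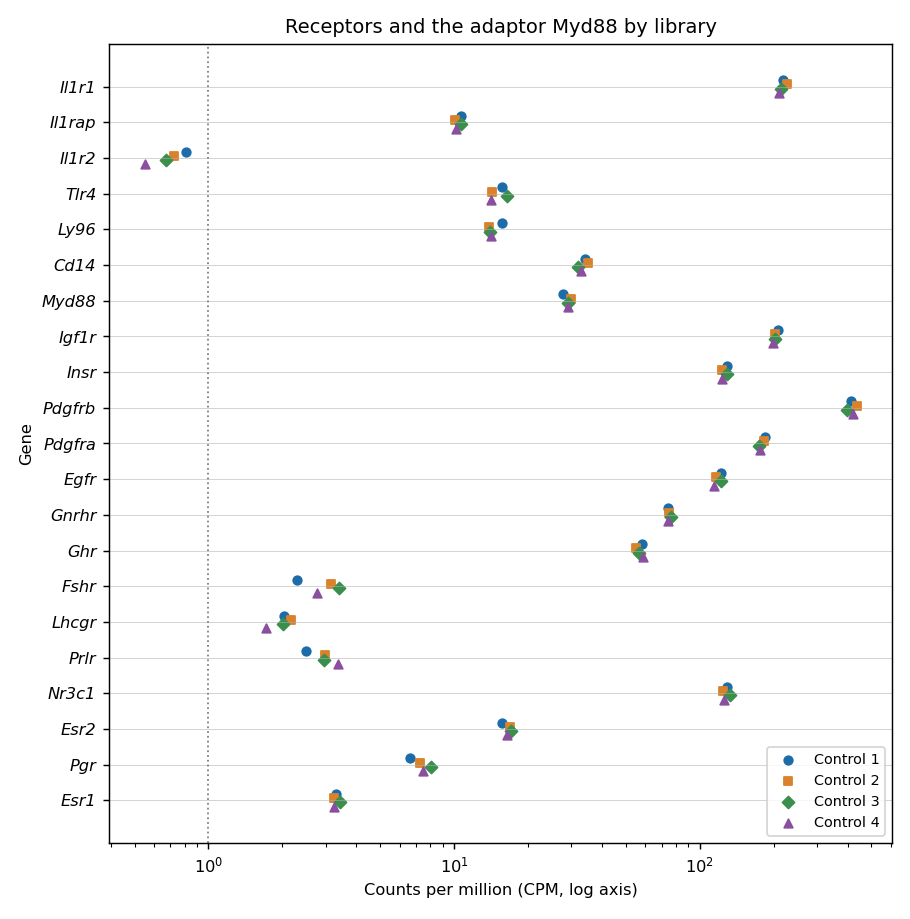
CPM of receptors and of the adaptor Myd88 on a log axis, 1 point for each Control library, with the dotted line at 1 CPM. Il1r1 lies above 200 CPM in all 4 libraries, Tlr4 and Ly96 between 10 and 20, and Lhcgr, Fshr and Prlr between 1 and 4.

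Inflammatory cytokines and chemokines were read unevenly in the unstimulated cultures. Of 33 in the list 19 were detected and 9 stood at 10 CPM or more, beside 48.6% and 34.1% of all rows, and the median was 1.4 CPM. Il1b had 36, 17, 17 and 28 counts (0.871 ± 0.197 CPM), Il6 stood at 0.446 ± 0.118 CPM and Tnf at 0.6705 ± 0.225 CPM; none of these was detected. Cxcl12, a stromal chemokine, led at 194, 184, 194 and 185 CPM. Tnfrsf11b, the decoy receptor osteoprotegerin, stood at 184 ± 7.59 CPM, the membrane-bound chemokines Cx3cl1 and Cxcl16 at 106 ± 6.28 and 104 ± 4.79 CPM, and the macrophage growth factor Csf1 at 85.5 ± 5.26 CPM. Ccl2, which attracts monocytes, was at 59.8, 40.1, 49.2 and 40.1 CPM, higher in replicates 1 and 3 than in 2 and 4. The interferon-induced chemokine Cxcl10 stood at 55.2 ± 3.42 CPM, the neutrophil attractant Cxcl1 at 18.3 ± 2.703 CPM and Ccl7 at 10.97 ± 1.86 CPM, and Ccl5, Ccl3 and Il1a just passed detection at 1.404 ± 0.162, 1.18 ± 0.127 and 1.16 ± 0.169 CPM. Il1rn, the IL-1 receptor antagonist, stood at 5.84 ± 0.911 CPM.

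Secreted hormones and growth factors were detected for 69 of 86 members, with 14 at 100 CPM or more and a median of 14.9 CPM. Ctgf, a matricellular factor induced by contraction and transforming growth factor beta, led at 1382, 1425, 1438 and 1434 CPM (1419.9 ± 25.8). Insulin-like growth factor 1 (Igf1) stood at 613, 636, 636 and 643 CPM (632 ± 13.2), its binding protein genes Igfbp5 and Igfbp7 at 762 ± 6.57 and 319 ± 19.04 CPM, and Igf2 at 2.23 ± 0.447 CPM. The related Nov and Cyr61 were at 545 ± 16.7 and 294 ± 5.55 CPM, and Fstl1 and Dkk3 at 428 ± 15.9 and 396 ± 9.26 CPM. Inhibin alpha (Inha) stood at 251, 280.5, 268 and 296 CPM, lowest in replicate 1 and highest in replicate 4; the beta chains Inhba and Inhbb were at 142 ± 5.84 and 32.2 ± 4.18 CPM and the activin-binding Fst at 29.4 ± 2.56 CPM. Bmp4, a theca-derived factor, stood at 79.1 ± 3.89 CPM and Bmp7 at 8.36 ± 0.4602 CPM. Transforming growth factor beta genes Tgfb2, Tgfb3 and Tgfb1 were at 241 ± 9.82, 192 ± 4.199 and 53.6 ± 3.54 CPM. Insl3 had 8, 4, 5 and 8 counts (0.225 ± 0.0488 CPM), and Amh stood at 1.58 ± 0.196 CPM.

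Collagens were read at high levels. Of 30 collagen chains 28 were detected, 23 at 10 CPM or more and 17 at 100 CPM or more, with a median of 256 CPM against 25.7 CPM over all detected rows. Col1a1 stood at 4406, 5014, 4392 and 4870.0 CPM and Col3a1 at 3036, 3349, 3059 and 3329.6 CPM, both higher in replicates 2 and 4 than in 1 and 3. The basement membrane chains Col4a1 and Col4a2 followed at 2879 ± 133 and 1730.2 ± 64.04 CPM, and the chains Col11a1, Col6a3, Col5a1 and Col5a2 of types XI, VI and V each stood above 1000 CPM in the mean. Cartilage chains Col2a1 and Col9a1 were at 0.2403 ± 0.08097 and 0.0806 ± 0.08302 CPM and were not detected. Summed over the chains the level was 22536, 24898, 22758 and 24456 CPM in the 4 libraries, a CV of 5.03%. Numbered second rows such as Col1a2-2 are not in that sum.

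Glycoproteins and proteoglycans were detected for 57 of 59 members, 34 at 100 CPM or more. After Fn1 came Sparc (3073 ± 129 CPM), the proteoglycan Bgn (2538 ± 97.1), Thbs1 (2439.8 ± 63.2), the collagen chaperone Serpinh1 (1737 ± 91.02) and Plod2, which hydroxylates collagen lysines (1177 ± 21.2). The laminin chains Lamb1, Lamb2 and Lamc1 stood at 492 ± 11.4, 494 ± 26.95 and 481 ± 12.2 CPM and nidogen 1 (Nid1) at 826 ± 33.97 CPM, and Lox, which crosslinks collagen and elastin, at 644 ± 25.03 CPM. Of 31 proteases and inhibitors 26 were detected. Ctsl, a lysosomal protease, led at 952 ± 13.2 CPM, with the membrane protease Mmp14 at 591 ± 23.8 and Mmp2 at 182 ± 14.5 CPM. Mmp13, Mmp7 and Mmp10 were under 1 CPM. Of 19 integrin chains 16 were detected. Itgb1, the shared beta chain of fibronectin, collagen and laminin receptors, stood at 2034, 2141, 2092 and 2092 CPM, Itga1 at 404 ± 2.61, Itgav at 345 ± 2.84 and Itga5, which pairs with Itgb1 as the fibronectin receptor, at 168 ± 1.93 CPM.

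Marker lists were then read for the cells the preparation could hold. Of the theca markers, which check the label of the cells, 9 of 11 were detected. Among them were Gata4, Star, Aldh1a1 (80.6 ± 2.73 CPM), Nr5a1, the hedgehog receptor Ptch1 (33.02 ± 0.849) and Tcf21 (21.1 ± 2.29). The defining markers Cyp17a1 and Insl3 were under 1 CPM and Lhcgr was near it, so those markers did not bear the label out. Whether theca cells were few or held little RNA of those genes was not tested. Because 10 of the 11 also stand in another list, the theca list is not separate evidence. Mesenchymal markers were detected for 15 of 15 members, with Vim at 2226 ± 62.3, Dcn at 539.5 ± 9.32 and Lum at 517 ± 10.4 CPM, and a median of 215 CPM. Smooth muscle and pericyte markers were detected for 16 of 16, with a median of 115 CPM. Tagln stood at 2240.1, 2365, 2321 and 2393 CPM and Acta2, smooth muscle actin, at 1841, 2038, 1896 and 1983 CPM, with the caldesmon gene Cald1 at 2170.1 ± 16.1 and the regulatory myosin chain Myl9 at 627 ± 27.5 CPM. Myh11, the smooth muscle myosin, was at 189.8, 207, 205 and 212 CPM and the pericyte marker Rgs5 at 3.96 ± 0.7198 CPM. The summed share of reads was 15521, 16939, 15563 and 16622 CPM for the mesenchymal list, 7914, 8340.4, 8095 and 8319 CPM for the contractile list and 626, 620.4, 628 and 610.2 CPM for the theca list. The lists differ in size and members, so these sums do not rank cell types. The mesenchymal sum includes the collagen chains Col1a1, Col1a2 and Col3a1, at 4671, 3940 and 3193 CPM in the mean. Of its 15 members, 9 stand in another list.

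Granulosa markers were detected for 10 of 11 members, although all 11 stand in another list too. Foxl2 was read at 48.6, 51.5, 57.00 and 58.6 CPM, Inha as given above, and Fshr and Amh between 1 and 4 CPM. Hsd17b1, also in the steroid converting list, rose from replicate 1 to 4 at 2.24, 5.10, 7.36 and 8.69 CPM, a CV of 48.3%. The summed list was 434, 483, 478 and 516 CPM, lowest in replicate 1 and highest in replicate 4. Endothelial markers were detected for 15 of 16 members, with 6 at 10 CPM or more, beside 48.6% and 34.1% of all rows. Cdh5, the cadherin of vessels, stood at 71.1, 60.99, 60.9 and 59.8 CPM and Pecam1 at 24.8, 19.7, 21.4 and 21.8 CPM, and the summed list was 252, 221, 216 and 225 CPM, highest in replicate 1. Macrophage markers were detected for 17 of 19 members, with 6 at 10 CPM or more, beside the same shares of all rows. The median of the macrophage list was 8.21 CPM. Lyz2 was at 25.3, 27.3, 26.1 and 28.6 CPM, Cd68 at 17.4, 16.9, 17.7 and 17.7 CPM, Emr1 (F4/80) at 18.4, 16.4, 15.6 and 18.4 CPM and the pan-leukocyte gene Ptprc at 8.27, 9.48, 9.17 and 7.56 CPM; the summed list was 193, 196, 186 and 193 CPM. The macrophage sum includes Cd14, so the part of macrophages in the CPM of Cd14 and Tlr4 above was not tested.

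Other blood cells left few reads. Of 16 lymphocyte markers 3 were detected, Cd4 at 11.95 ± 0.465, Cd79a at 6.05 ± 0.893 and Lck at 1.92 ± 0.409 CPM, while the T cell receptor chains Cd3d, Cd3e and Cd3g were at 0.484 ± 0.181, 0.118 ± 0.103 and 0.163 ± 0.0984 CPM and Pax5 had 0 counts. Cd4 is also carried by rat macrophages. Of 14 neutrophil and mast cell markers Kit alone was detected, at 40.3, 36.9, 34.6 and 33.3 CPM, and Kit is shared with oocytes and theca. Surface epithelium markers were detected for 8 of 13 members, with 3 at 10 CPM or more and a median of 2.37 CPM. The shares of all rows were 48.6% for detection and 34.1% at 10 CPM or more. The list was led by Wt1, which also stands in the list of gonadal factors, Krt8 (16.3 ± 0.801 CPM) and Krt18 (13.04 ± 0.822). Epcam was at 0.394 ± 0.0696 CPM and Msln at 0.281 ± 0.137 CPM.

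Oocyte genes were read in all 4 cultures. Of 12 oocyte markers 11 were detected and 5 stood at 10 CPM or more, beside 48.6% and 34.1% of all rows. The median was 6.25 CPM. Kit, which is shared with theca, is among the 5 and in the list sum, at a mean of 36.3 CPM. Zp2, a protein of the zona pellucida, stood at 75.4, 74.1, 74.3 and 72.3 CPM, Zp3 at 28.9, 33.9, 26.5 and 27.2 CPM, the oocyte growth factor Gdf9 at 21.2, 23.3, 21.9 and 19.3 CPM and Nlrp5, a maternal-effect gene, at 17.9, 17.97, 20.8 and 16.9 CPM. Summed over the list the libraries held 205, 210.1, 201 and 189 CPM. No library lacked them, and the highest and lowest sums lay in replicates 2 and 4.

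**Figure D4:**
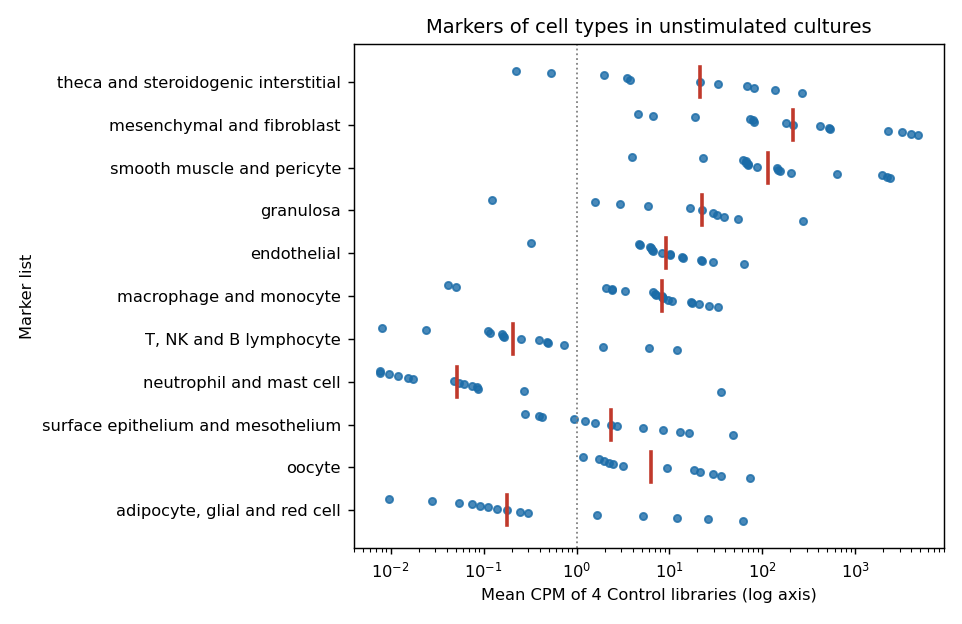
Mean CPM over the 4 Control libraries of each member of 11 marker lists on a log axis; blue points are genes, red bars are list medians, the dotted line is 1 CPM, and Pax5, with 0 counts, has no point. Mesenchymal and smooth muscle medians stand at 215 and 115 CPM, theca and granulosa medians at 21.1 and 22.2 CPM, and lymphocyte and neutrophil medians below 1 CPM.

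Genes of cell division and glycolysis were read in all 4 cultures. Genes of G2 and mitosis were all detected, 21 of 21, each at 10 CPM or more. Mki67, present in cycling cells, stood at 242, 249, 264 and 261 CPM, and Kif23, Prc1 and Top2a at 115 ± 3.43, 86.3 ± 3.53 and 82.4 ± 7.89 CPM. The summed list was 1105, 1136, 1191 and 1206 CPM, lowest in replicate 1. Replication genes were detected for 18 of 18 members, led by Rrm1 (87.97 ± 1.98 CPM) and Pcna (79.9 ± 5.301). The inhibitors Cdkn1b, Cdkn2b and Cdkn1a stood at 73.2 ± 6.96, 69.8 ± 2.898 and 64.9 ± 3.08 CPM, and Cdk4, the partner of D cyclins, at 207 ± 3.803 CPM. All 15 glycolysis genes stood at 10 CPM or more and 12 at 100 CPM or more, with Gapdh at 1053 ± 13.8, Aldoa at 614 ± 26.5 and Pkm at 578 ± 27.6 CPM, and a list sum of 4892, 4653, 4904 and 4673 CPM, higher in replicates 1 and 3. Of the imprinted genes Grb10 and Plagl1 stood at 109.5 ± 2.04 and 98.3 ± 3.103 CPM, and the fetal growth genes H19 and Dlk1 at 1.15 ± 0.155 and 0.6399 ± 0.104 CPM. Of 33 Hox genes 12 were detected and 2 stood at 10 CPM or more, smaller shares than the 48.6% and 34.1% of all rows. The 2 were Hoxc6 at 18.8 ± 0.599 and Hoxd4 at 11.5 ± 0.744 CPM. Hoxd9, at 10.3 ± 0.792 CPM, passed 10 CPM in the mean but not in every library.

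The 4 cultures lay close together. The common biological coefficient of variation, the spread beyond counting error, was 3.05% over 16284 rows, and of 10453 rows with a mean of 10 CPM or more 241 (2.31%) had a CV above 10% and 5 above 20%. As a check for a library deposited more than once, the chi-square of the counts of each pair of libraries was computed per row. It ran from 1.84 for replicates 1 and 3 and 1.88 for replicates 2 and 4 to 3.59 for replicates 1 and 4, while resequencing of a single library would give about 1, so all 4 were kept as separate samples. The labels give no batch, day or animal for these pairs.

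The 10 genes of highest dispersion at 10 CPM or more were mostly ordered by those pairs. Rows with a mean under 10 CPM, such as Hsd17b1, were outside this choice. Akr1b8, an aldo-keto reductase, stood at 42.9, 23.5, 41.8 and 25.7 CPM, a CV of 30.8%. Gfpt2, of the hexosamine pathway, was at 38.3, 23.5, 36.5 and 20.9 CPM and Nqo1, a quinone reductase and known target of Nrf2, at 29.9, 18.96, 31.1 and 20.6 CPM. In all of them replicates 1 and 3 were above replicates 2 and 4. The same held for the cystine transporter Slc7a11 (18.2, 13.02, 18.6 and 13.2 CPM), for Pappa, a protease of IGF-binding proteins (13.99, 8.41, 12.5 and 8.46 CPM), for Ccl2 as given above and for the adhesion gene Vcam1 (12.3, 9.29, 10.7 and 8.01 CPM). Adamts4, a protease of aggrecan, was at 16.98, 22.4, 15.5 and 23.1 CPM, with replicates 2 and 4 above the other two. Scand1 and Slc35d2 were lowest in replicate 1 and highest in replicate 4, at 17.04, 22.2, 21.8 and 27.1 and 8.396, 10.6, 10.4 and 13.3 CPM. These genes were selected for their spread, so the size of that spread is a description.

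**Figure D5:**
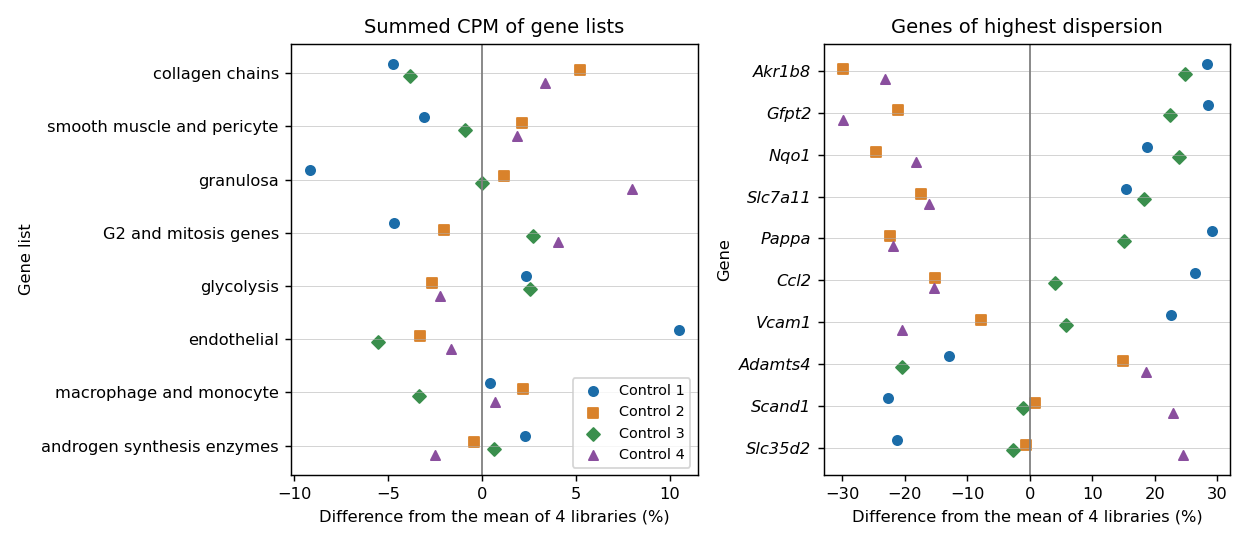
Difference of each Control library from the mean of the 4, in percent, for the summed CPM of 8 gene lists (left) and for the 10 genes of highest dispersion (right); the vertical line is the mean. Collagen sums lie above the mean in replicates 2 and 4, glycolysis sums above it in replicates 1 and 3, and Akr1b8, Gfpt2 and Nqo1 above it in replicates 1 and 3.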

How the data were processed

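Per the labels' protocols, total RNA was made into stranded libraries of polyadenylated RNA (Illumina TruSeq) and sequenced on a HiSeq4000. The submitters' processing notes name TopHat2 2.1.1, SAMtools, DESeq2 and the build Rnor_6.0; the counting program, its strand setting and the annotation are not given in the sources used here, so overlapping and antisense genes cannot be told apart. The deposited values are raw counts per gene symbol, which the authors did not normalize, for 12 libraries; all columns were mapped to a sample and 4 were used.

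TMM factors (edgeR 4.0.16, R 4.3.3) were computed on the 4 Control libraries alone and ran from 0.9959 to 1.003. Dispersion was estimated by edgeR with an intercept as the sole term on rows kept by filterByExpr, after a check on simulated counts. No groups were compared, so no test between groups was run; single libraries were screened within the group by the gap that sets them apart, and pairs of libraries by a chi-square of their counts. Total counts set the precision, and counting errors cover counting alone. Rows that agreed within 0.2% in all 4 libraries formed 69 pairs over 121 rows with 3.28% of counts, and 472 rows were numbered second copies of a symbol (0.996% of counts); all were kept. Transcript lengths of the build were not used here, so levels are not per length.

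Of 808 memberships in 33 lists, 790 were matched to the table, 8 of them through another RefSeq symbol; the others, among them Hsd3b1, Ccr2 and Malat1, were not analysed here. The lists were chosen with earlier results of these data known. Named genes were the 30 rows of highest CPM, up to 6 detected members of highest CPM in each list, a fixed panel of receptors and cell markers, and the 10 rows of highest dispersion at 10 CPM or more; other members named were chosen after their values were seen. A few genes that these rules select are not reported here. Alternatives were DESeq2 1.42.0 size factors, library size alone, other detection minimums, other filters, second copies left out, and each library left out.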

Additional observations from a re-analysis of the deposited data

Results flagged for a closer look

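Among 218 named genes, 9 had 1 Control library set apart from the other 3 by a gap that filled most of the range of the 4. Chance meets this criterion in about 1 of 20 groups, a rate that 9 of 218 does not exceed. The 9 are therefore listed as values alone. None of the 33 list sums met the criterion. In replicate 1, Nedd4 was low at 1783 CPM (the others 1844 to 1847), Gata4 low at 265 CPM (270.5 to 271) and Mcm2, a replication helicase gene, low at 45.6 CPM (48.8 to 49.1). In the same library the vascular genes Cdh5 and Kdr were high, at 71.1 CPM (59.8 to 61.0) and 33.1 CPM (28.1 to 28.5), and so was Ly96, the partner of Tlr4, at 15.6 CPM (13.9 to 14.1). In replicate 2, the zona pellucida gene Zp1 was high at 11.2 CPM (8.60 to 8.96) and Hoxb3 low at 2.55 CPM (3.25 to 3.29). Npc2 was low in replicate 3, at 215 CPM (220.1 to 221). Of the 9, 6 fell in replicate 1, 2 in replicate 2 and 1 in replicate 3.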

How the results depend on the processing

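The count of detected rows, the share of the first 100 rows and the list counts kept within 1.5 times or within their spread under every alternative run, except that the oocyte list held 7 detected members at a minimum of 2 CPM against 11 at 1 CPM. The common coefficient of variation of 3.05% ran from 2.82% to 3.18% with a library left out, lowest without replicate 1, and the median DESeq2 dispersion corresponded to 5.49%, another estimator. Levels of named genes moved by less than 1 SD for 218 of 218 under both other scalings; leaving out a library cannot move a mean of 4 by 1 SD, so it says nothing of their stability. With second copies left out 15 moved by more, because the remaining counts are then divided by a smaller total, 202 did not, and Col1a2-2 itself was left out. Depth limits genes near 1 CPM, where counting error was 21.9% in the shallowest library. The levels per length that had been planned were not run, since no lengths of the build were used here. No paired analysis was possible because no groups were compared.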

Other observations

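Genes described here were picked after their values were seen. Further oocyte genes stood beside the listed markers: Padi6, of the cytoplasmic lattices of the egg, at 70.4, 74.4, 63.7 and 62.05 CPM, Nlrp14 at 25.6, 28.5, 25.4 and 22.3 CPM and Zp4 at 6.28, 6.32, 5.69 and 6.27 CPM. Padi6 was highest in replicate 2 and lowest in replicate 4, as was Nlrp14. The globin genes were uneven. Hba2 and Hba1, for the alpha chain, stood at 114, 129, 119 and 125 and 57.9, 63.01, 62.1 and 64.9 CPM, while the beta chain rows Hbb and Hbb-b1 were at 0.302 ± 0.159 and 0.113 ± 0.0944 CPM and the red cell gene Alas2 at 0.1397 ± 0.0348 CPM. Of the glial markers, S100b stood at 12.1 ± 0.869 CPM and Sox10 at 0.247 ± 0.112 CPM.

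The rats were labelled female. Of 4 Y-linked genes Ddx3y was read at 7.68, 7.42, 9.08 and 7.91 CPM, while Sry, Kdm5d and Eif2s3y were at 0.0454 ± 0.0145, 0.0441 ± 0.0552 and 0.0119 ± 0.0239 CPM; Ddx3x, the X-linked relative of Ddx3y, stood at 648, 627, 631 and 613 CPM.

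Beside Nqo1, Slc7a11 and Akr1b8, other genes known as Nrf2 targets were looked up. Hmox1, heme oxygenase 1, stood at 102, 75.04, 96.2 and 69.3 CPM and Srxn1, sulfiredoxin, at 34.8, 26.7, 33.7 and 25.03 CPM, both higher in replicates 1 and 3 than in 2 and 4, as were Txnrd1 at 126, 115, 127 and 118 CPM and Gclc at 62.6, 54.5, 61.3 and 57.98 CPM. Gclm (32.5, 33.8, 34.7 and 33.01 CPM) was not ordered that way. Cyp11b2, the aldosterone synthase of the adrenal, had 37, 23, 22 and 38 counts, or 1.08 ± 0.152 CPM.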
